A study of Mus musculus with 10 samples.

Results

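Leukocyte-type surface proteins were followed in tuft cells of the inflamed pancreas through 9 of the 12160 genes listed in the deposited expression table: Siglecf, Cd300lf, Cd300a, Klrb1c, Ly6g6f, Ms4a8a, Bst1, Cd38 and Kit. The genes were picked by name from a table in which their difference between tuft and non-tuft cells was already known. That difference is therefore described without p-values, and counts of the genes called in the fit follow from the choice. The libraries came from 5 male wild type CD1 mice (one label gives the strain as Mixed) with pancreatitis induced by 4 cycles of caerulein, a cholecystokinin analogue that overstimulates acinar cells, at 0.25 mg/kg with 0 to 2 days of recovery. Live cells that were Cd45-neg and EpCAM+, hence epithelial by gate, were split by FACS into Siglec f+ tuft cells and Siglec f-neg non-tuft epithelial cells, and each of the 5 tuft and 5 non-tuft Smart-Seq2 libraries was made from 100 cells. All libraries shared the injury, no uninjured pancreas was compared here, the age of the mice is not given in the sources used here, and whether a tuft and a non-tuft library of the same number came from the same mouse is not stated.

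Tuft cells are rare chemosensory epithelial cells with a tuft of apical microvilli, and in the pancreas they appear after injury. The genes followed here encode proteins better known from blood cells. Siglec f is a sialic acid-binding lectin of eosinophils with inhibitory motifs (ITIMs) in its tail, Cd300lf and Cd300a are phospholipid-binding Ig-type receptors of myeloid cells, and Klrb1c is a C-type lectin of natural killer cells. Ly6g6f is an Ig-type protein encoded in the major histocompatibility complex region, Ms4a8a is a four-pass protein of the family of the B cell antigen CD20, Bst1 (CD157) and Cd38 are related ecto-enzymes that consume NAD, and Kit is the receptor tyrosine kinase for stem cell factor.

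Values are log2(RPKM + 1) after quantile normalization. RPKM is read density per length of transcript, so levels can be compared between genes, and a difference on this scale understates the change of a gene with low values. The lowest value of a library, its floor, was 0 in every library except non-tuft library 2, where it was 0.17, and a gene at the floor is one for which no level was listed. The sequencing depth is unknown, so how much transcript a floor value could hide cannot be given. In bulk RNA from 100 cells, fewer cells with a transcript and less transcript per cell cannot be told apart, and protein was not measured.

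The sorted populations carried the transcripts of their labels, with exceptions that touch the results. All 11 listed tuft cell marker genes, among them Dclk1, Pou2f3 and Trpm5, were above the floor in every tuft library and 11 of 11 were called higher there. Their summed level was 3833 to 10878 RPKM in tuft and 0.938 to 497 RPKM in non-tuft libraries. Non-tuft libraries 1, 2 and 5 held 9, 8 and 11 of the 11 tuft markers above the floor, at a median of 2.67%, 5.70% and 10.7% of the tuft mean level, whereas non-tuft libraries 3 and 4 held 3 and 2. Library 5 of each group also stood apart, with 7 of 7 endothelial and fibroblast markers above the floor and a summed level of 742 RPKM in non-tuft 5 and 253 RPKM in tuft 5.

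The levels of the genes spanned a wide range in tuft cells, and 9 of 9 had a higher mean in tuft than in non-tuft libraries, as had 50.9% of all listed genes. In 7 of the 9 every tuft library lay above every non-tuft library, which held for 6.31% of all listed genes, and the groups overlapped for Klrb1c and Kit. Called genes are those with an adjusted p under 0.05 (limma, Benjamini-Hochberg) and a fold over 4, and by that rule 7 of the 9 were called, against 8.31% of all listed genes called in either direction, 4.32% higher and 3.99% lower in tuft cells. These counts follow from how the genes were chosen. The median difference over the 9 genes was 4.68 on the log2 scale, or 5.49 without Cd300a and Klrb1c, whose non-tuft libraries all lay at the floor, and that over all listed genes was 0.02.

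**Figure D1:**
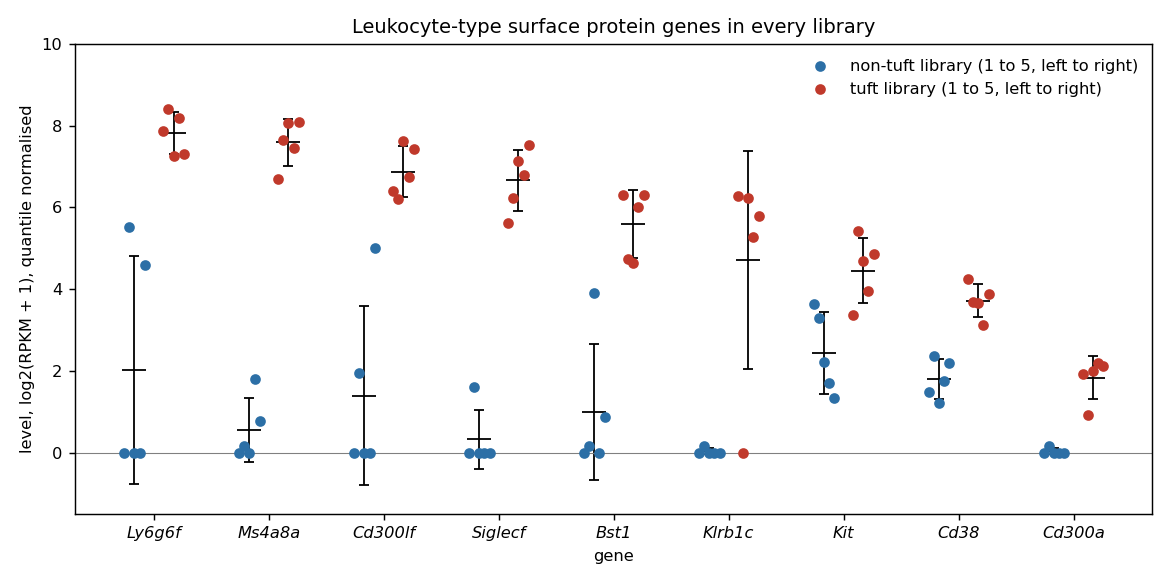
Level of each of the 9 genes (log2(RPKM + 1), vertical axis) in the 5 non-tuft (blue) and 5 tuft (red) libraries, with horizontal bars for the group mean and whiskers for the SD; the genes are in order of tuft mean. The highest 5 genes sit between 4.64 and 8.41 in the tuft libraries, Klrb1c is at 0 in tuft library 2, and the 2 groups overlap for Klrb1c and Kit.

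Ly6g6f had the highest mean level of the 9 in tuft cells, at 7.81 ± 0.52 (SD, n = 5), or a mean of 235 RPKM, and 98.1% of listed genes had a lower tuft mean. Its levels in tuft libraries 1 to 5 were 7.86, 8.41, 7.27, 8.20 and 7.31. In non-tuft libraries 1 to 5 they were 0, 5.53, 0, 0 and 4.60, a mean of 2.03 ± 2.79 (SD, n = 5). Non-tuft libraries 2 and 5 were thus far above the other non-tuft libraries, yet below every tuft library, and the difference of means was 5.78. Libraries 2 and 5 are among the 3 non-tuft libraries with the most tuft marker transcripts, and in the remaining one, library 1, Ly6g6f was at the floor. Ly6g6f stood in libraries 2 and 5 at 19.2% and 9.90% of its tuft mean in RPKM. The 11 tuft markers had medians of 5.70% (0 to 29.0%) and 10.7% (1.64% to 46.3%) there. The part of such transcripts in the result was not tested.

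Ms4a8a followed at 7.59 ± 0.57 (SD, n = 5), with 6.70, 7.65, 8.07, 7.46 and 8.10 in tuft libraries 1 to 5. Non-tuft libraries 1 to 5 were at 0, 0.17, 0, 1.81 and 0.78, which puts 3 of 5 at the floor and none near a tuft library. With a mean of 204 RPKM in tuft and 0.668 RPKM in non-tuft libraries, it had the largest difference of the 9 genes, 7.04. The levels of Ly6g6f and Ms4a8a in tuft cells differed by 0.22, less than either SD.

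Siglecf, the transcript of the protein used to sort the cells, was at 5.62, 6.24, 7.13, 6.80 and 7.52 in tuft libraries 1 to 5, a mean of 6.66 ± 0.75 (SD, n = 5). Of the non-tuft libraries, 4 of 5 were at the floor and the remaining one, library 2, was at 1.61, a mean of 0.32 ± 0.72 (SD, n = 5). The sort on its protein fixed the direction of this gene, and its difference of 6.34 checks the gate rather than adding to it.

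Cd300lf, a receptor for phospholipids and in mice for murine norovirus, was at 6.40, 6.20, 7.62, 6.74 and 7.43 in tuft libraries 1 to 5, a mean of 6.88 ± 0.62 (SD, n = 5). In non-tuft libraries 1 to 5 it was at 0, 1.95, 0, 0 and 5.00, a mean of 1.39 ± 2.19 (SD, n = 5), and the difference was 5.49. As with Ly6g6f, the libraries above the floor were non-tuft 2 and 5, where it stood at 2.27% and 24.7% of its tuft mean in RPKM. Cd300a, an ITIM-bearing relative of Cd300lf, was the lowest of the 9 in tuft cells, at 1.93, 0.91, 1.98, 2.20 and 2.11 in tuft libraries 1 to 5, a mean of 1.83 ± 0.53 (SD, n = 5) with 37.4% of listed genes lower. All 5 non-tuft libraries lay at the floor, so no fold is given.

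Klrb1c, the natural killer cell receptor that carries the NK1.1 epitope in some strains, was at 6.28, 0, 6.22, 5.29 and 5.80 in tuft libraries 1 to 5. Tuft library 2 was at the floor, as were all 5 non-tuft libraries, and the other 4 tuft libraries lay within 1 log2 unit of each other. The mean of 4.72 ± 2.67 (SD, n = 5) therefore describes no single tuft library, and the SD was the largest of the 9 genes; the median SD over 3111 listed genes with a tuft mean of at least 4 was 0.54.

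The 2 ecto-enzymes differed in level. Bst1 was at 6.29, 4.74, 4.64, 6.02 and 6.30 in tuft libraries 1 to 5, a mean of 5.60 ± 0.84 (SD, n = 5), and at 0, 0.17, 3.92, 0 and 0.87 in non-tuft libraries 1 to 5, a mean of 0.99 ± 1.67 (SD, n = 5). The highest non-tuft value was in library 3, which held few tuft marker transcripts, and lay below all tuft values; the difference of means was 4.61. Cd38 was lower in tuft cells, at 4.25, 3.67, 3.65, 3.12 and 3.89, a mean of 3.72 ± 0.41 (SD, n = 5), and was above the floor in every non-tuft library, at 1.48, 2.36, 1.21, 1.76 and 2.20, a mean of 1.80 ± 0.48 (SD, n = 5). Its groups did not overlap, with a difference of 1.92 that is just under a fold of 4.

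Kit had the highest mean of the 9 genes in non-tuft cells on the log2 scale, at 3.63, 3.30, 2.22, 1.69 and 1.33 in non-tuft libraries 1 to 5, a mean of 2.43 ± 1.00 (SD, n = 5). Its tuft values were 3.36, 5.41, 4.69, 3.95 and 4.86, a mean of 4.45 ± 0.80 (SD, n = 5). The groups overlapped, since non-tuft library 1 lay above tuft library 1, and the difference of 2.02 is just over a fold of 4. Cd38 and Kit thus stand on either side of the fold used for calling.

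The order of mean levels in tuft cells was Ly6g6f, Ms4a8a, Cd300lf, Siglecf, Bst1, Klrb1c, Kit, Cd38 and Cd300a. Of the 8 pairs of neighbours in this order, 3 were separated by more than the SD of both genes: Ms4a8a above Cd300lf by 0.72 in 5 of 5 libraries, Siglecf above Bst1 by 1.06 in 4 of 5, and Cd38 above Cd300a by 1.89 in 5 of 5. The other 5 pairs did not differ beyond their spread. Within single tuft libraries, Ly6g6f or Ms4a8a ranked first in each, and Cd300a was last in 4 of 5, the exception being tuft library 2 with Klrb1c at the floor.

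By Euclidean distance over the 10 libraries, the closest of the 9 genes to each other were Siglecf and Ms4a8a, at 3.28, followed by Cd38 and Kit, at 3.72. Among all other listed genes, those nearest to Siglecf were Bglap (distance 1.76) and Bglap2 (1.96), both osteocalcin genes, and those nearest to Ms4a8a were Folr1 (2.17), a folate receptor, and Fcna (2.21), a ficolin. Nearest to Cd300lf were Pygl (2.38), the liver-type glycogen phosphorylase, and Rac2 (2.50), a small GTPase of blood cells. Spib (2.81), an ETS-family transcription factor, was nearest to Ly6g6f, followed by 1810046K07Rik (3.08). The other genes had Doc2a (0.902) and Fnbp1 (1.05) nearest to Cd300a, Sdcbp2 (2.61) and Ppp1r3b (3.21) to Bst1, Wdfy1 (1.48) and Mapkapk5 (1.53) to Cd38, and Gpr137b-ps (1.34) and Rb1 (2.32) to Kit. Klrb1c had no listed gene closer than Bfsp1 (4.22) and Inhbc (4.41). These distances describe 10 libraries and mostly follow the level in each group.

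The genes lie on 6 chromosomes of mm9 (NCBIM37, GENCODE annotation). Siglecf, annotated there as Siglec5, is at chr7:50606711-50614901 on the plus strand, and Klrb1c is in the natural killer gene complex at chr6:128728503-128739233 on the minus strand. Cd300a (chr11:114751355-114765968, plus strand) and Cd300lf (chr11:114977528-114995306, minus strand) belong to the same gene cluster. Ly6g6f is at chr17:35217425-35222555 and Ms4a8a at chr19:11141962-11155593, both on the minus strand. Bst1 (chr5:44210125-44234510) and Cd38 (chr5:44260048-44303614) are adjacent on the plus strand, 25.5 kb apart, and Kit lies far from them at chr5:75970941-76052747. Smart-Seq2 reads carry no strand, and Cd300lf overlaps Rab37 and Bst1 overlaps Fbxl5 on the opposite strand. Rab37 had a tuft mean of 0.19, against 6.88 for Cd300lf. Fbxl5 had means of 5.69 in tuft and 4.52 in non-tuft cells, against 5.60 and 0.99 for Bst1. The part of reads from the opposite strand was not tested.

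Within 100 kb of the 9 genes lie 66 annotated protein-coding genes, with Bst1 and Cd38 counted as neighbours of each other. Leaving out the 9 genes, 31 of them were listed. Of these 31, 2 were called higher in tuft cells (6.45%, against 4.32% of all listed genes) and 0 were called lower, with a median difference of 0.26. Ly6g6d, a GPI-anchored Ly6 protein encoded 2.41 kb from Ly6g6f, was at 4.78, 5.88, 5.00, 5.81 and 4.95 in tuft libraries 1 to 5 and at 3.04, 0.17, 1.30, 0 and 4.47 in non-tuft libraries 1 to 5. All tuft values lay above all non-tuft values, and the difference was 3.49 with an SE of 0.77 and an adjusted p of 0.0094 (limma). Ly6g6e overlaps Ly6g6d on the opposite strand, and its tuft mean was 2.97. Gprc5c, an orphan G protein-coupled receptor gene 17.4 kb from Cd300a, had a tuft mean of 7.80 against 5.49 in non-tuft cells, a difference of 2.32 with an adjusted p of 0.0032 (limma). Other listed neighbours of Ly6g6f include Abhd16a, 3.65 kb away (difference 1.41, adjusted p = 0.12, limma), and Clic1, 21.7 kb away (1.54, adjusted p = 0.11, limma). Ddah2, 18.4 kb away, went the other way (-0.97, adjusted p = 0.22, limma). None of these passed the test. Lst1, a leukocyte transcript 99.5 kb away, had a tuft mean of 1.78 with all non-tuft libraries at the floor (adjusted p = 0.0069, limma). It was not called, its difference of 1.75 being under the fold of 4. The same held for Prom1, 81.2 kb from Cd38, with means of 9.14 in tuft and 7.80 in non-tuft cells. Its difference was 1.34 (adjusted p = 0.039, limma). No annotated protein-coding gene lies within 100 kb of Kit.

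**Figure D2:**
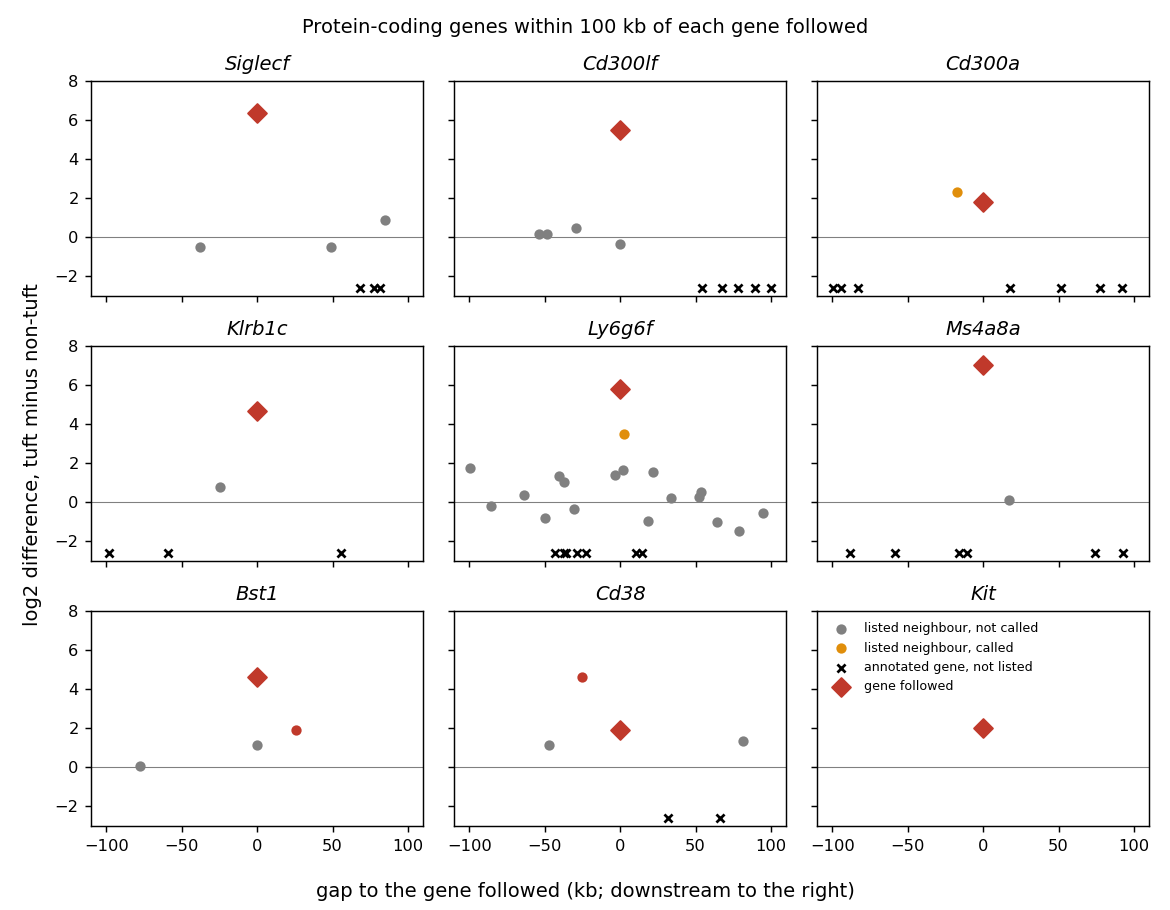
Difference of means between tuft and non-tuft libraries (log2, vertical axis) for protein-coding genes within 100 kb of each of the 9 genes, against the gap to it in kb, with downstream to the right. Red diamonds are the gene itself, red points another of the 9 genes, grey and orange points listed neighbours not called and called, and crosses, at the foot, annotated genes that are not listed and have no value; the 2 orange points are Gprc5c next to Cd300a and Ly6g6d next to Ly6g6f.

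Promoter sequence was available for 8 of the 9 genes (RefSeq, GRCm38.p6), all but Bst1, and each 250-base stretch before the RefSeq start matched NCBIM37 at 1 place. For Kit and Klrb1c that stretch lies partly or wholly inside the gene as GENCODE annotates it. On both strands, the letters ATGCAAAT (the octamer of POU factors, the family of the tuft cell regulator Pou2f3) were in 0 of the 8 stretches and in 1.61% of 27025 promoters. AGGAAGT, an ETS motif, was in 0 of 8 and in 7.80% of all promoters. AGATAA, a motif of the Gata family of factors, was in 2 of 8, Cd38 and Ly6g6f, and in 10.3% of all promoters. These are matches of letters only. GC content was 70.8% for Kit and 47.2% to 53.6% for the other 7, with a median of 52% over all promoters. The stretches of the sorted-for gene and of the 2 genes with a match are shown, 5′ to 3′ on the strand of the gene, with the AGATAA matches or their reverse complement in capitals. For Siglecf this is chr7:50606461-50606710 (plus strand), for Ly6g6f chr17:35222556-35222790 (minus strand, without the 15 bases nearest the RefSeq start, which are in the annotated gene) and for Cd38 chr5:44259798-44260047 (plus strand), all in NCBIM37.
Siglecf: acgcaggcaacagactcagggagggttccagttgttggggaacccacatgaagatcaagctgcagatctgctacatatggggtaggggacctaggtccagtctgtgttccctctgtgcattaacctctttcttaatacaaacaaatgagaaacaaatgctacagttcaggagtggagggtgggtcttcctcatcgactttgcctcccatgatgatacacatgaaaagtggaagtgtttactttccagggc
Ly6g6f: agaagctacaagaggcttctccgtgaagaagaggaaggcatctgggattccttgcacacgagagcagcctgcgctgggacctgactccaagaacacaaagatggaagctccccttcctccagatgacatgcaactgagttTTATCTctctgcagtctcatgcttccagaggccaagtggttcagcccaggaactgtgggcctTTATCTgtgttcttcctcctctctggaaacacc
Cd38: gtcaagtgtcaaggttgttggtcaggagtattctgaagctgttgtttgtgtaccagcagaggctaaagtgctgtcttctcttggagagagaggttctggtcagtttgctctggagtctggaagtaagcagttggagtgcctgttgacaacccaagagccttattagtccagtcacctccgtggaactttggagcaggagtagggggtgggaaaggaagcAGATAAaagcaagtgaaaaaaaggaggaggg
In Ly6g6f the matches begin 110 and 48 bases upstream of the RefSeq start, both on the minus strand relative to the gene, and in Cd38 the match begins 31 bases upstream.

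Genes related by family or by name, with some ligands such as Kitl and the Clec2 genes, were compared next, from lists without the 9 genes. Over these 6 lists, called surface families below, 30 genes were listed. Of them 1 was called higher (Ly6g6d) and 0 lower in tuft cells, with a median difference of -0.33. Ly6g6d is a Ly6 protein and Ly6g6f an Ig-type protein, so the called gene is a neighbour of Ly6g6f on the chromosome and not a relative of the same protein type. Of 8 other siglec genes 2 were listed, Mag and Siglecg, and neither passed the test; Siglecg, 48.7 kb from Siglecf, was at the floor in all 5 tuft libraries. Of 11 other CD300 genes 0 were listed. The Ly6 list had 1 of 9 listed genes called, and the MS4A list 0 of 5, in which Tmem176b had a tuft mean of 9.95 against 8.46 (adjusted p = 0.066, limma) and the B cell gene Ms4a1 0.81 against 0.74. Without a correction for multiple tests, 2 of the 5 MS4A genes, Tmem176a and Tmem176b, had p under 0.05, both higher in tuft cells.

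Of the lectins of the natural killer gene complex and their Clec2 ligands, 0 of 7 listed genes were called, and 1 of 7 had an unadjusted p under 0.05. That gene, Klrb1a, a close relative of Klrb1c, was at 3.25, 1.74 and 2.81 in tuft libraries 3, 4 and 5 and at the floor elsewhere (adjusted p = 0.14, limma). Klrb1b, which encodes the inhibitory receptor for Clr-b, was above the floor in the same 3 libraries, at 1.73, 1.04 and 1.26 (adjusted p = 0.28, limma). The Klrb1 genes are close in sequence, so the split of reads among them is uncertain. Clec2d, which encodes Clr-b, had a tuft mean of 2.36 ± 0.91 and a non-tuft mean of 2.10 ± 1.23 (SD, n = 5 each) and overlapped between the groups.

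Of 7 listed class III receptor tyrosine kinases and ligands other than Kit, 0 were called and 2 had an unadjusted p under 0.05, both lower in tuft cells. Kitl, which encodes stem cell factor, was at 4.14, 0, 0.49, 0 and 0 in tuft libraries 1 to 5 and at 1.82, 2.44, 3.83, 4.32 and 1.43 in non-tuft libraries 1 to 5, a difference of -1.84 (adjusted p = 0.19, limma). Tuft library 1, the one with the lowest Kit, was thus the only tuft library with Kitl near the non-tuft range. Of 22 listed genes for proteins linked to Kit signalling, not all of them downstream of Kit, 0 rose and 1 fell. Spred1, an inhibitor of Ras-MAPK signalling, had a tuft mean of 0.67 ± 0.84 and a non-tuft mean of 3.04 ± 0.87 (SD, n = 5 each), a difference of -2.37 (SE 0.53, adjusted p = 0.010, limma), a call that was lost in 4 of 17 alternatives. These were centring of each library on ribosomal protein genes, 10 added before the logarithm, leaving out library 5 of both groups (adjusted p = 0.0504, limma) and leaving out non-tuft libraries 1, 2 and 5 (adjusted p = 0.18, limma).

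ITIM and ITAM receptors signal through a set of phosphatases, adaptors and kinases. Of 19 listed genes for these, 6 rose and 1 fell in tuft cells, with a median difference of 0.48, and with each library centred on ribosomal protein genes 7 rose and 0 fell. Ptpn6 (SHP-1), the phosphatase recruited by ITIMs, was at 6.71, 7.17, 7.99, 6.92 and 7.99 in tuft libraries 1 to 5 and at 1.84, 4.03, 0.01, 1.97 and 4.62 in non-tuft libraries 1 to 5, a difference of 4.87 (SE 0.75, adjusted p = 0.0011, limma). Inpp5d (SHIP-1), an inositol phosphatase of the same receptors, was at 5.12 to 5.84 in tuft and 0 to 3.90 in non-tuft libraries, a difference of 4.02 (SE 0.69, adjusted p = 0.0022, limma). The groups did not overlap for either phosphatase. Ptpn11 (SHP-2), the more widely expressed relative of Ptpn6, had means of 1.66 and 2.14 in tuft and non-tuft cells (adjusted p = 0.57, limma).

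The Src family kinases, which phosphorylate these motifs, moved in both directions. Lck, a kinase best known from T cells, was at 2.59 to 4.78 in tuft libraries, with all non-tuft libraries at the floor (adjusted p = 0.00019, limma), so no fold is given. Csk, the kinase that holds the family inactive, rose by 2.18 (SE 0.44, adjusted p = 0.0060, limma), or by 1.90, under the fold of 4, without non-tuft library 4, and Dok3, an adaptor, rose by 2.55. Lyn was at 5.68 to 6.10 in tuft and 0.59 to 4.10 in non-tuft libraries and rose by 2.98 (SE 0.63, adjusted p = 0.0073, limma), with no overlap between the groups. That difference was 1.92, under the fold of 4, without non-tuft libraries 1, 2 and 5, and 1.90 with 10 added before the logarithm. Fyn fell by 2.68, with 4 of 5 tuft libraries at the floor (SE 0.53, adjusted p = 0.0048, limma), a call that was lost with ribosomal centring, with 10 added before the logarithm and without non-tuft libraries 1, 2 and 5 (adjusted p = 0.065, limma). Of the adaptors, Tyrobp (DAP12) was at the floor in 4 of 5 tuft libraries and at 0.70 in tuft library 3, and Fcer1g is not listed. Grb7 and Grb2, to which Ly6g6f can bind, had tuft means of 7.07 and 2.58 against 6.59 and 3.16 in non-tuft cells and did not pass the test.

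**Figure D3:**
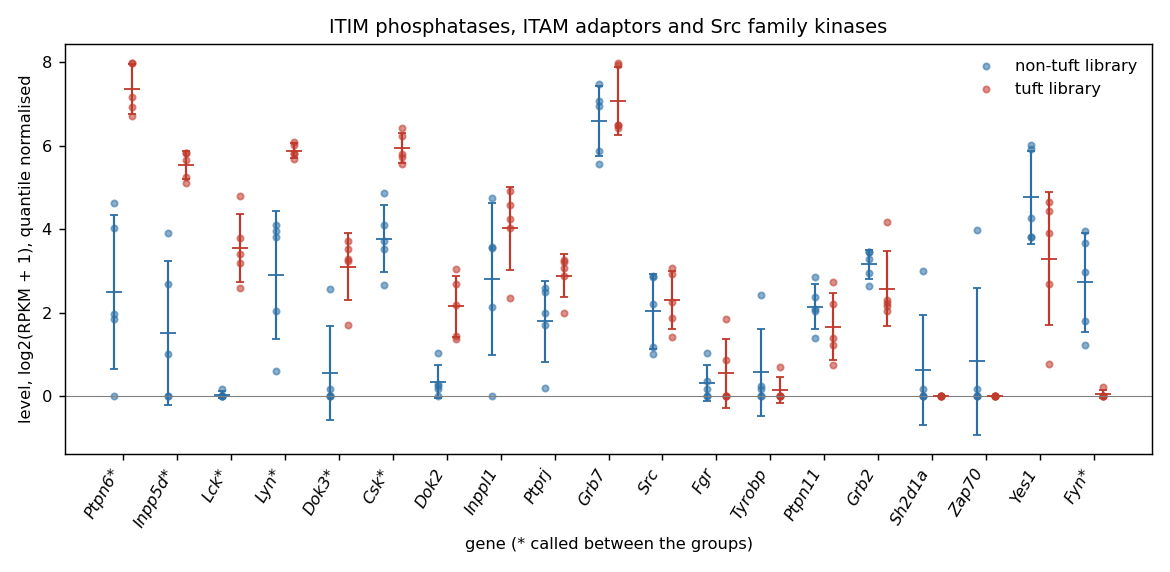
Level (log2(RPKM + 1), vertical axis) of the 19 listed genes for ITIM phosphatases, ITAM adaptors and Src family kinases in the 5 tuft (red) and 5 non-tuft (blue) libraries, ordered by the difference; points are libraries, bars are means and whiskers the SD, and an asterisk marks the 7 called genes. Ptpn6, Inpp5d, Lck, Lyn, Dok3 and Csk are higher in tuft libraries, and Fyn is at or near the floor in them.

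Bst1 and Cd38 consume NAD outside the cell and release ADP-ribose and nicotinamide, and other ecto-enzymes and transporters handle NAD, ATP and the adenosine that follows. Of 16 other genes listed for this pathway, 0 rose and 5 fell in tuft cells, with a median difference of -0.60. With ribosomal centring 2 rose and 3 fell. The 16 include Sarm1, Mcoln1, Tpcn1 and Tpcn2, whose proteins act inside the cell. None of these was called in the main fit, and Mcoln1 was among the 2 that rose with ribosomal centring. Gja1 (connexin 43), through which NAD can leave cells, was at 4.98, 5.21, 6.37, 6.02 and 4.13 in non-tuft libraries 1 to 5 and at the floor in all 5 tuft libraries (adjusted p = 1.08e-05, limma), so no fold is given. Slc28a3, a nucleoside transporter, fell by 4.16 (SE 0.75, adjusted p = 0.0028) and Slc29a1, the equilibrative nucleoside transporter ENT1, by 2.90 (SE 0.44, adjusted p = 0.0010) in the limma fit. Their tuft values were 0 to 0.10 and 0 to 1.03, below every non-tuft value.

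Entpd2 and Entpd1 (CD39), which hydrolyse extracellular nucleotides, fell by 2.73 (SE 0.44, adjusted p = 0.0013) and 2.13 (SE 0.48, adjusted p = 0.011) in the limma fit, and neither was called with ribosomal centring or with 10 added before the logarithm. Entpd1 also lost its call without non-tuft library 2, where it fell by 1.80, under the fold of 4, without library 5 of both groups (adjusted p = 0.059, limma) and without non-tuft libraries 1, 2 and 5 (adjusted p = 0.097, limma). Tuft libraries were at the floor in 3 of 5 for Entpd2 and in 4 of 5 for Entpd1. Entpd8, a further member of that enzyme family, was at 2.10 to 3.23 in tuft and 0 to 1.56 in non-tuft libraries; its difference of 1.98 (adjusted p = 0.0098, limma) was under the fold of 4. P2rx7, an ATP-gated channel sensitive to extracellular NAD in mice, was above the floor in 1 tuft library only, at 1.93.

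Inside the cell, 11 genes of NAD synthesis were listed, of which 1 rose and 1 fell. Nmrk1, the nicotinamide riboside kinase, had a tuft mean of 4.62 ± 0.67 and a non-tuft mean of 1.73 ± 1.88 (SD, n = 5 each), a difference of 2.90 (SE 0.77, adjusted p = 0.026, limma). Non-tuft library 1, at 4.42, lay within the tuft range of 3.58 to 5.21, and the call was lost when any 1 of 7 libraries was left out. Nadk2, the mitochondrial NAD kinase, fell by 2.20 (SE 0.55, adjusted p = 0.020, limma), a call lost in 6 of 18 alternatives, among them ribosomal centring and leaving out non-tuft library 4, tuft library 1, or non-tuft libraries 1, 2 and 5. Nampt, which makes the precursor of NAD from nicotinamide, had means of 2.51 and 1.91 in tuft and non-tuft cells and did not pass the test.

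**Figure D4:**
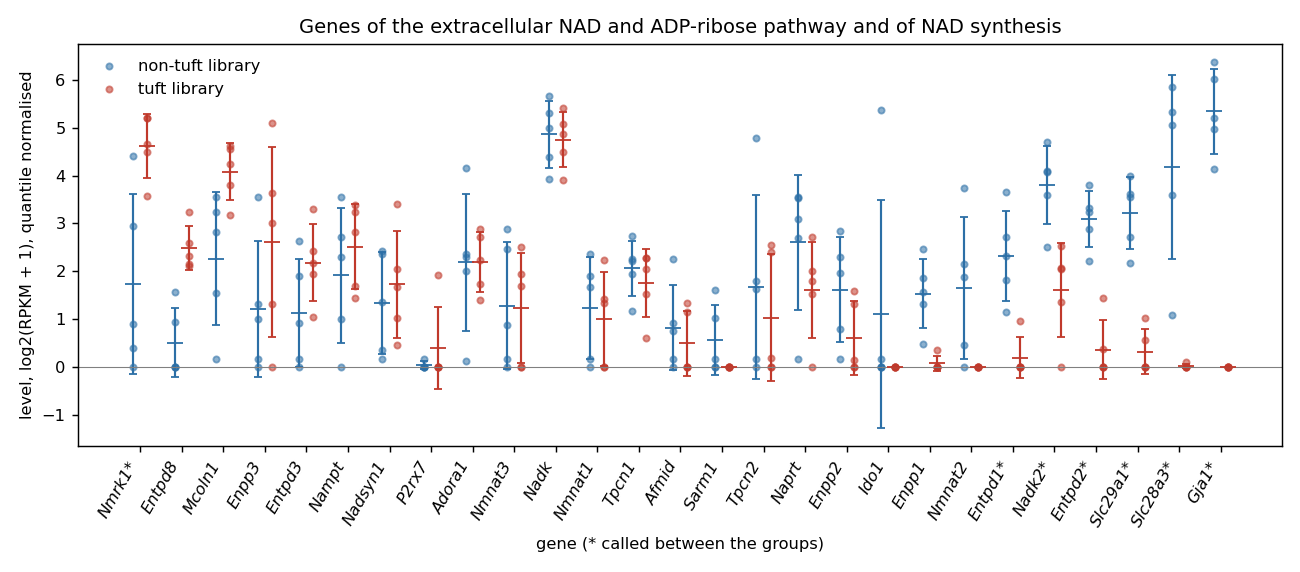
Level (log2(RPKM + 1), vertical axis) of 27 listed genes in the 5 tuft (red) and 5 non-tuft (blue) libraries, ordered by the difference. The genes are those listed for the extracellular NAD and ADP-ribose pathway, with the intracellular Sarm1, Mcoln1, Tpcn1 and Tpcn2, and for NAD synthesis. Points are libraries, bars are means and whiskers the SD, and an asterisk marks the 7 called genes. Nmrk1 is the called gene that is higher in tuft libraries, and Gja1 is at 0 in all of them.

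Because the 9 genes are best known from leukocytes, the markers of the cell types in question were read in the same libraries. Of 12 eosinophil genes, headed by Epx, and of 10 neutrophil genes, headed by S100a8, 0 were listed. Of 13 mast cell and basophil genes 1 was listed, Mcpt2, at the floor in all 5 tuft libraries, and Cpa3 is not listed. Of 11 natural killer and innate lymphoid genes 1 was listed, Il7r, at 2.34 in tuft library 5 and 5.93 in non-tuft library 5 and at the floor in the others. The natural killer gene Ncr1 and the myeloid genes Adgre1 and Itgax are not listed. Genes that varied little in RPKM were removed from the table, so a gene that is not listed has no value here.

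Over all leukocyte lists 33 genes were listed, of which 1 was called higher and 0 lower in tuft cells, with a median difference of 0.01. The called gene was Ptprc, which encodes the Cd45 protein that the gate selected against, at 3.97, 4.33, 2.74, 2.74 and 3.45 in tuft libraries 1 to 5 and 1.04, 0.17, 0.48, 0 and 1.93 in non-tuft libraries 1 to 5. The groups did not overlap, and the difference was 2.72 (SE 0.49, adjusted p = 0.0029, limma). The other 8 listed pan-leukocyte genes, such as Cd53, Cd52 and Coro1a, were not called. Over the 9 pan-leukocyte genes, 2 to 7 were above the floor in a tuft and 1 to 7 in a non-tuft library, with a median summed level of 28.8 RPKM in tuft and 7.52 RPKM in non-tuft libraries. Cd37, a tetraspanin, was above the floor in 4 of 5 tuft and 1 of 5 non-tuft libraries, and Cd53, another tetraspanin, in 1 of 5 of each. Of 6 listed B cell and plasma cell genes 0 were called, with a summed level of 23.9, 0, 8.02, 36.3 and 31.7 RPKM in tuft libraries 1 to 5 and of 125 RPKM in non-tuft library 5. The other 4 non-tuft libraries were at 0, so the medians were 23.9 RPKM in tuft and 0 in non-tuft libraries. Cd79a was at the floor in 2 of 5 tuft libraries, and 1 of the 6, Cd79b, was called higher when non-tuft library 5 was left out.

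The 3 listed T cell genes summed to 19.2, 6.71 and 10.1 RPKM in tuft libraries 1, 3 and 5, to 28.9 RPKM in non-tuft library 5 and to 0 in the other 6 libraries, with medians of 6.71 RPKM in tuft and 0 in non-tuft libraries. Cd2, an adhesion receptor of T cells, was above the floor in these 3 tuft libraries, at 4.34, 2.95 and 2.83, and Cd3d in tuft library 5 alone, at 1.12. The platelet gene Pf4 had means of 1.62 and 0.37 (adjusted p = 0.34, limma). The 8 listed macrophage and monocyte genes summed to 1.36 to 65.8 RPKM (median 10.9) in tuft and 7.90 to 147 RPKM (median 58.9) in non-tuft libraries, and the 4 listed dendritic cell genes to 0 to 73.4 (median 43.5) and 18.0 to 252 RPKM (median 52.7). These lists had 0 called genes in the limma fit, and 0 with an unadjusted p under 0.05. On the log2 scale, Cd14 was the highest macrophage and monocyte gene in every non-tuft library, at 2.72 to 7.08. It was also the highest in tuft libraries 1, 2 and 4, and Lyz2 was in tuft libraries 3 and 5, at 4.92 and 2.58. Cd74 was the highest dendritic cell gene in every non-tuft library, at 4.25 to 7.90, and in tuft libraries 2 to 5. The non-tuft sums thus do not stand for the lists as a whole. In tuft library 2, where all listed B cell, T cell and natural killer markers were at the floor, Ly6g6f, Ms4a8a, Cd300lf and Siglecf were at 8.41, 7.65, 6.20 and 6.24, while Klrb1c was at the floor and Cd300a at 0.91, the lowest of its tuft values. The pan-leukocyte genes Ptprc, Itgal and Cd37 were at 4.33, 1.91 and 1.62 in that library. In tuft library 5, which held the fibroblast transcripts and 3 of 3 T cell markers, Ly6g6f, Ms4a8a, Cd300lf and Siglecf were at 7.31, 8.10, 7.43 and 7.52, Klrb1c at 5.80 and Cd300a at 2.11. The part of leukocyte transcripts in the levels of the 9 genes was not tested.

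**Figure D5:**
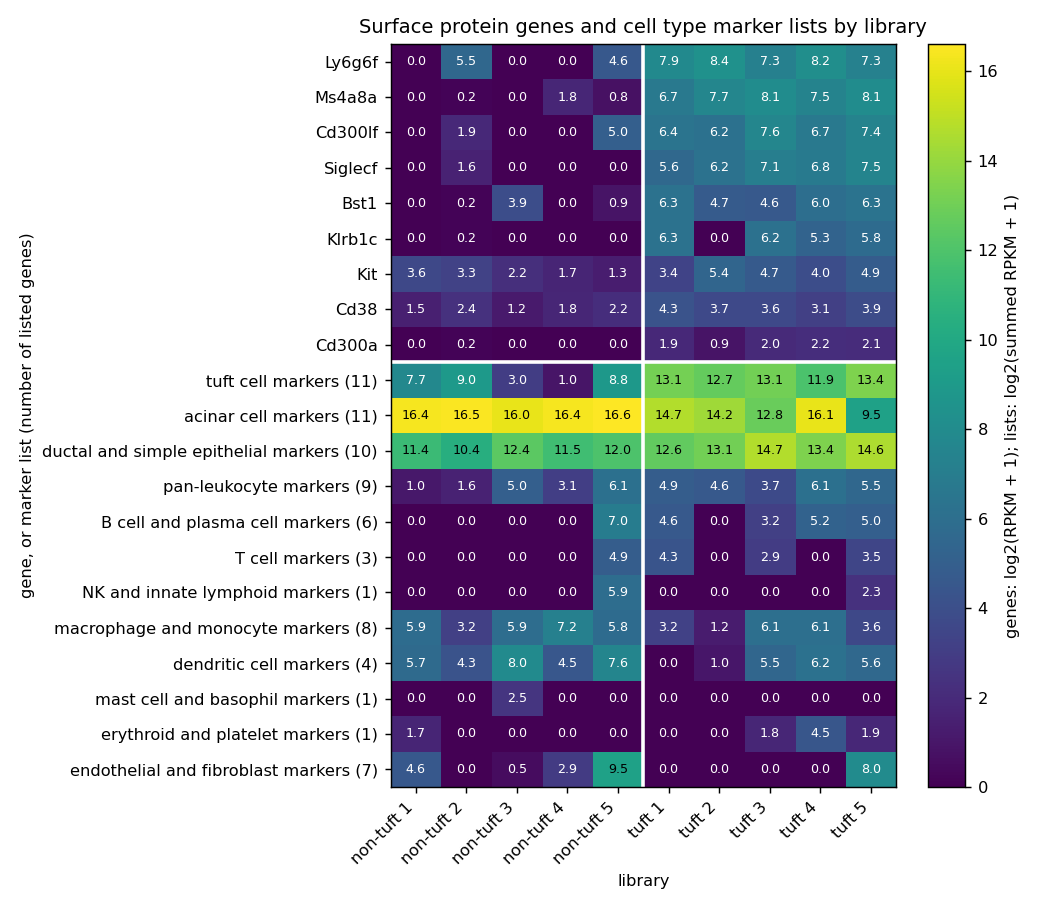
The 9 genes (above the white line, log2(RPKM + 1)) and the summed level of cell type marker lists (below it, log2(summed RPKM + 1), number of listed genes in parentheses) in each library, as colour and value; the value 0.2 of single genes in non-tuft library 2 is its floor. Tuft markers are high in all tuft libraries and present in non-tuft libraries 1, 2 and 5, and library 5 of each group holds endothelial and fibroblast markers.

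Without library 5 of either group, 9 of 9 genes had a higher mean in tuft cells, the median difference was 4.41, and 5 of the 9 were called, against 7 with all libraries. Without non-tuft libraries 1, 2 and 5, which held the tuft marker transcripts, 9 of 9 were higher, the median difference was 4.72 and 6 of the 9 were called. These counts again follow from how the genes were chosen. Of the calls over all listed genes, 54.8% were higher in tuft cells in the former fit and 57.9% in the latter, against 52.0% with all libraries. The share of all listed genes called in these fits is not given here, so the drop from 7 cannot be set against it. Over all listed genes the median difference was 0.00019 without library 5 of either group, and 0.01 without non-tuft libraries 1, 2 and 5. Acinar markers, of which 8 of 11 listed were called lower in tuft cells, were above the floor for 9 to 11 of the 11 genes in the tuft libraries, at a summed 725 to 68472 RPKM against 67678 to 100315 RPKM in non-tuft libraries. Tuft library 4, with the most acinar transcript of the tuft libraries, had Ly6g6f at 8.20 and Cd300lf at 6.74, and tuft library 5, with the least, had them at 7.31 and 7.43. Like Cd300lf, Siglecf, Ms4a8a, Bst1, Klrb1c, Kit and Cd38 were lower in tuft library 4 than in tuft library 5. Cd300a was higher there, like Ly6g6f. The part of acinar transcripts in these levels was not tested.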

How the data were processed

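Smart-Seq2 libraries of 100 sorted cells were grouped as 5 tuft and 5 non-tuft by the sample labels. The authors checked 50 bp single-end reads with FastQC, mapped them to mm9 with HISAT2, quantified RPKM with StringTie and Ballgown, removed genes with an RPKM variance under 1, and deposited log2(RPKM + 1) values, quantile normalized with preprocessCore, for 12160 genes. In the deposited table the lowest value of a library takes 1442 to 3753 genes, and 18 entries carry dates in place of gene names. The deposited fold ratio, p-value and false discovery rate columns hold the authors' own comparison and were not used. Read counts were not used here, so depth is unknown and no counting interval is given.

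The log2 values were fitted with lmFit and eBayes of limma 3.58.1 (R 4.3.3), without covariates, with Benjamini-Hochberg adjustment over all genes; calls needed both an adjusted p under 0.05 and a change of over 4 times. The fit was tested on simulated data. Quantile normalization fixes the distribution of every library, so values are relative to it. RPKM sums of markers were taken from the normalized values returned to the linear scale. Python 3.11.15 and pandas 2.3.3 did the rest.

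The 9 genes and all lists were chosen with earlier results of these data known. Of each list up to 6 called genes with the smallest p were named, with the first gene of each leukocyte list and the 2 listed genes nearest to each of the 9; other genes were named after their values were seen. A few genes were left out of the lists and are not reported here. Positions are from GENCODE on NCBIM37 (mm9), and promoters from RefSeq (GRCm38.p6), placed by exact match. Alternatives were a replicate block, 0.1 or 10 in place of the 1 added before log2, a filter at a mean log2 of 2, centring on 80 ribosomal protein genes, trend and robust eBayes, other thresholds, and leaving out each library. A further 3 were added after seeing the data: without library 5 of both groups, without non-tuft libraries 1, 2 and 5, and with every floor at 0. The p-values measure the spread between these libraries.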

Additional observations from a re-analysis of the deposited data

Results flagged for a closer look

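Dixon's test flags about 1 in 20 groups by chance where values are normally spread. That rate does not hold for groups with most libraries at the floor. Where 4 of 5 libraries share 1 floor value, the library above it is flagged at any value. In 55 groups of 5 libraries over 28 named genes, 12 libraries stood apart from the other 4 of their group by that test. Among the 9 genes these were Siglecf in non-tuft library 2, at 1.61 with the others at 0, Cd300a in tuft library 2, at 0.91 with the others at 1.93 to 2.20, Klrb1c in tuft library 2, at 0 with the others at 5.29 to 6.28, and Bst1 in non-tuft library 3, at 3.92 with the others at 0 to 0.87. Tuft library 2 is thus the low library for both Cd300a and Klrb1c, and it was the highest tuft library for Ly6g6f and Kit.

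Tuft library 3 held residual transcript of Entpd2 (1.44, others 0 to 0.36), Entpd1 (0.96, others 0) and Fyn (0.22, others 0), genes called lower in tuft cells, and Slc28a3 was at 0.10 in tuft library 5 with the others at 0. Library 5 of each group held Cd3d, at 3.40 in non-tuft (others 0 to 0.17) and 1.12 in tuft (others 0), and non-tuft library 5 held Cd79a at 5.23 (others 0 to 0.17). Pf4 was at 1.70 in non-tuft library 1, with the others at 0 to 0.17.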

How the results depend on the processing

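The 9 genes had a higher mean in tuft cells under every alternative run. Their median difference of 4.68 became 7.12 with 0.1 added before log2 and 2.27 with 10, which follows from the weight each constant gives to low values. The median was 5.48 with ribosomal centring and ranged from 4.43 to 5.63 with 1 library left out. Over the settings compared 5 to 9 of the 9 were called, counts that follow from how the genes were chosen. All 9 were called with ribosomal centring, where 1514 genes were called in all. With 10 added, 278 genes were called in all, 0 of the surface families, 3 of the pathways and 0 leukocyte markers, against 1010, 1, 15 and 1. With genes of a mean log2 of at least 2 only, 8 pathway genes were called of the 32 left. Ribosomal centring moved the median of all genes from 0.02 to 0.82 and the share of calls that were higher in tuft cells from 52.0% to 85.1%, and 4 surface family genes were called (Ly6g6d, Klrb1a, Tmem176a and Tmem176b). Leaving out 1 library gave 841 to 1010 calls in all, 12 to 16 of the pathways and 1 to 2 leukocyte markers (2 without non-tuft library 5). Surface family calls were 1 to 3, with Il34 added without non-tuft library 1, Ly6g6e and Kitl without tuft library 1, and 2 calls without non-tuft libraries 1, 2 and 5. Of the named partner genes, Gja1, Inpp5d and Ptpn6 were called in each alternative run for them, and Nmrk1 lost its call in 11 of 18, with adjusted p (limma) up to 0.15. Where a construction is not named, the cause was not tested.

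Same-numbered tuft and non-tuft libraries deviated with correlations of 0.06 to 0.24, all positive and over 0.1 in 3 of 5, and 3 of 5 tuft and 4 of 5 non-tuft libraries correlated best with their own number. Both cell types were sorted from the same 5 mice, so the groups share mice, and what is open is whether the numbers match them. The correlations hint that they do, but no label ties the numbers to mice and not every correlation was over 0.1. The block was therefore kept as an alternative, and the main fit leaves out any pairing by mouse. With the replicate block, 1009 genes were called in all, 14 of the pathways (without Nmrk1), 2 of the surface families (Ly6a was added, lower in tuft cells) and 1 leukocyte marker; 6 of the 9 genes were called and their median stayed at 4.68. The lack of depth and of read counts limits what a value at the floor can show.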
